A study of Mus musculus with 9 samples.

Results

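The genes described here are 13 genes of the integrated stress response and 19 genes of cytosolic tRNA synthetases, with mRNA levels from bulk RNA sequencing of ST2, a stromal line of mouse bone marrow. They were taken from a fixed list of 32 symbols, and all 32 had a line in the deposited table of 55453 lines. The filter on low counts kept 31 of them among 13568 tested genes, and the gene left out was Fgf21. Each synthetase passed the filter.

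The series asks how stromal cells change when they engulf dying neutrophils, a process called efferocytosis that its title ties to osteoblastic differentiation and mitochondrial remodelling. Wild-type ST2 cells at about 80% confluence received dye-labelled human neutrophils (20 µM dye) after a freeze of 18 h or longer, 10 for each ST2 cell. The 3 groups had 3 libraries each. The fed 24 h group was sorted after 24 h for a dye signal no lower than that of 1 whole neutrophil, the fed 3 h group was sorted in the same way after 3 h, and the unfed group was collected at 24 h without neutrophils. Feeding and selection by the sort differed together between fed and unfed cells and cannot be told apart. No unfed library of 3 h was analysed here, so in the comparison of fed 3 h with unfed cells the time in culture differed as well. The labels do not state that replicates were separate cultures of this cell line, so p-values measure the spread between these libraries, which may be technical.

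The integrated stress response is started by kinases that phosphorylate the translation factor eIF2 when cells lack amino acids, accumulate unfolded proteins, lose haem or sense mitochondrial damage. General translation then slows, while the mRNA of the transcription factor ATF4 is translated better, and ATF4 raises genes of amino acid uptake, amino acid synthesis and tRNA charging. Aminoacyl-tRNA synthetases attach each amino acid to its tRNA, and the genes of many cytosolic synthetases are known ATF4 targets. Since ATF4 is controlled largely at translation, its mRNA level is not a measure of its activity.

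ATF4 binds DNA together with C/EBP proteins at a composite element whose core is TGATGNAA, which was searched on both strands of the RefSeq promoter windows (build GRCm38.p6, 250 bases before to 50 bases after the gene's start). Windows were matched for 24 of the 32 members, and none was matched for Ppp1r15b, Cars, Hars, Lars, Nars, Rars, Vars and Wars. The element was present in 5 of the 12 matched stress response genes (Trib3, Chac1, Asns, Nupr1 and Fgf21) and in 5 of the 12 matched synthetases (Aars, Gars, Iars, Tars and Yars). Of all 32851 windows, 3.97% held it, and of all 27025 genes with a window, 4.51% did. A match is a description of the letters and not a binding site.

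The 5 stretches below show elements that lay wholly before the start in 3 stress response genes and 2 synthetases, with up to 11 bases on each side, 5′ to 3′ on the strand of the gene, and with the element in capitals. In Asns it reads in the direction of the gene, and in the others it is the reverse complement.
Asns (chr6:7693214-7693243, minus strand): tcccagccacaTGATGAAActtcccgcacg
Nupr1 (chr7:126625562-126625591, minus strand): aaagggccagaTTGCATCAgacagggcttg
Chac1 (chr2:119351038-119351067, plus strand): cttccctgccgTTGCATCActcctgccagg
Gars (chr6:55037960-55037989, plus strand): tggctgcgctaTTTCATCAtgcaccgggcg
Tars (chr15:11399659-11399684, minus strand): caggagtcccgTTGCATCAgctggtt
Counted back from the start, the elements began at base −23 in Asns, −110 in Nupr1, −193 in Chac1, −30 in Gars and −15 in Tars. In GENCODE M21 the stretches of Asns and Nupr1 lie in exons of the same gene, since that annotation holds transcripts that begin further upstream, 7 bases of the Tars stretch do so, and those of Chac1 and Gars lie outside annotated exons. The elements of Trib3, Iars and Yars lay after the start. Aars held an element before the start and another after it, and the element of Fgf21 lay before the start. Those of Aars and Fgf21 are not shown.

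Total counts ran from 44442664 to 55971275 per library, and the tested genes held at least 99.96% of them. Mitochondrially encoded genes held 1.78% to 2.22% of counts in fed 24 h, 1.12% to 1.58% in fed 3 h and 1.48% to 1.61% in unfed libraries, so that all fed 24 h libraries lay above the others. A fit without these genes and ribosomal RNA linked genes also called 13 synthetases lower at 24 h and 14 higher at 3 h against unfed cells. Over all genes it called 2147 lower at 24 h and 3451 higher at 3 h. The main fit called 2159 and 3408, or 15.9% and 25.1% of tested genes. Leaving genes out does not remove a difference between libraries that the mitochondrial share may mark, and its part in the results was not tested. The 9 stromal markers listed for the cell line passed the filter, with summed levels of 32540 to 34270 CPM in fed 24 h, 26000 to 26650 CPM in fed 3 h and 29520 to 31790 CPM in unfed libraries. Against unfed cells, 6 of the 9 fell and 0 rose at 3 h (log2 fold changes −1.33 to 0.34), where 25.5% of all tested genes fell. At 24 h 4 rose and 0 fell, where 14.9% of all tested genes rose. Between fed 24 h and fed 3 h cells 7 were higher and 1 lower, where 30.8% and 30.2% of all tested genes were. Of 12 mouse neutrophil marker genes, 11 failed the filter, and their sum was 3.41 to 4.31 CPM in fed 24 h, 0.838 to 1.48 CPM in fed 3 h and 2.32 to 2.95 CPM in unfed libraries. S100a9 and Ngp were at 0 in every library. Of 8 macrophage markers, 5 passed the filter and Adgre1 and C1qa were at 0 in every group, with sums of 25.6 to 28.6 CPM in fed 24 h, 28.1 to 29.1 CPM in fed 3 h and 23.9 to 25.8 CPM in unfed libraries. Of 4 endothelial markers, 0 passed. The table lists mouse symbols, and how reads of the human neutrophils were set apart is not given in the sources used here, and their part in the results was not tested.

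Levels are given as CPM, read counts set to a common library total after TMM scaling, and levels of different genes are set side by side only as CPM per kilobase of annotated exon. Per kilobase, Atf4 was the most abundant stress response gene, with 142 in fed 24 h, 164 in fed 3 h and 130 in unfed cells. Gdf15 was the lowest of those tested, with 2.60 in fed 24 h, 1.89 in fed 3 h and 1.71 in unfed cells. Among the synthetases, Gars was the highest in every group, with 98.5 in fed 24 h, 135 in fed 3 h and 121 in unfed cells. The median synthetase had 36.4 CPM per kilobase in fed 24 h, 45.6 in fed 3 h and 41.1 in unfed cells. The lowest was Farsa in fed 24 h cells (13.9) and in unfed cells (14.8), and Qars in fed 3 h cells (16.9). The SD of a stress response gene over 3 libraries reached 28.9% of its mean in fed 24 h (Ppp1r15a), 16.1% in fed 3 h (Ppp1r15a) and 26.0% in unfed cells (Gdf15). The SD of a synthetase over 3 libraries was at most 7.04% of its mean in fed 24 h, 4.49% in fed 3 h and 10.6% in unfed cells.

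Cells that had been fed for 24 h, set against unfed cells of the same time, had lower levels of most synthetases, while the stress response genes moved in different directions. In all, 13 of 19 synthetases fell and 0 rose, where 15.9% of all tested genes fell, 14.9% rose and 30.8% were called in either direction (edgeR, adjusted p under 0.05). The falls were small, with a median log2 fold change over the 19 synthetases of −0.16, against 0.00 over all tested genes. Of the 12 tested stress response genes, 4 rose and 2 fell, with a median of 0.05. All 3 fed 24 h libraries lay below all 3 unfed libraries in 13 synthetases, as they did in 22% of all tested genes. They lay above all 3 in 5 stress response genes, as they did in 21.3% of all tested genes. In bulk RNA, fewer responding cells and less change per cell cannot be told apart.

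The largest rise among the members was in Ppp1r15a (chromosome 7, 45522916 to 45526268), which encodes GADD34, the inducible phosphatase subunit that reverses eIF2 phosphorylation. It had 81.4, 44.7 and 64.6 CPM in fed 24 h libraries, 38.8, 46.2 and 33.5 CPM in fed 3 h libraries and 17.9, 21.2 and 22.8 CPM in unfed libraries. Every fed library lay above every unfed library, and the fed 24 h libraries were widely spread, with an SD of 28.9% of their mean and the lowest of them below the highest fed 3 h library. The log2 fold change was 1.62 in fed 24 h cells (SE 0.167, edgeR adjusted p = 1.20e-05) and 0.94 in fed 3 h cells (SE 0.169, edgeR adjusted p = 0.000266), each against unfed cells. Set directly against fed 3 h cells, fed 24 h cells were higher by 0.68 (SE 0.158, edgeR adjusted p = 0.00146). Its constitutive relative Ppp1r15b, which encodes the phosphatase subunit CReP, had 230, 230 and 226 CPM in fed 24 h libraries, 194, 178 and 186 CPM in fed 3 h libraries and 245, 223 and 230 CPM in unfed libraries. The fed 3 h libraries lay below the other 6, and the log2 fold change was −0.03 in fed 24 h (adjusted p = 0.699 by edgeR) and −0.32 in fed 3 h cells (SE 0.0457, edgeR adjusted p = 2.98e-05).

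Atf4 itself (chromosome 15, 80255184 to 80257541) had 345, 319 and 343 CPM in fed 24 h libraries, 396, 384 and 378 CPM in fed 3 h libraries and 280, 320 and 319 CPM in unfed libraries. The fed 3 h libraries lay above all others, and fed 24 h and unfed libraries overlapped. Against unfed cells, Atf4 rose by 0.33 at 3 h (SE 0.0532, edgeR adjusted p = 9.24e-05), whereas its value at 24 h was 0.13 (adjusted p = 0.0733 by edgeR). The 24 h value was called without fed 24 h replicate 2 or unfed replicate 2, with 0.17 in each case, and by DESeq2 (0.13). Fed 24 h cells were lower than fed 3 h cells, with a log2 fold change of −0.20 (SE 0.0531). Atf5, a related factor that is also controlled at translation, had 240, 250 and 237 CPM in fed 24 h libraries, 224, 232 and 233 CPM in fed 3 h libraries and 252, 267 and 233 CPM in unfed libraries. Its fall at 3 h was slight (−0.13, edgeR adjusted p = 0.041), and the call ended without any 1 fed 3 h library, unfed replicate 1 or 2 or fed 24 h replicate 1 (values −0.14 to −0.08). Cebpg, a C/EBP protein that pairs with ATF4, had 37.9, 38.8 and 40.6 CPM in fed 24 h libraries, 40.6, 37.5 and 39.6 CPM in fed 3 h libraries and 45.1, 44.6 and 44.4 CPM in unfed libraries. All fed libraries lay below all unfed libraries, and the log2 fold change was −0.19 at each time (edgeR adjusted p = 0.00641 at 24 h and 0.00379 at 3 h).

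Nupr1 and Ddit3 were highest at 3 h and partly lower again at 24 h. Nupr1 (chromosome 7, 126623249 to 126630861), a small chromatin-associated stress protein, had 46.1, 40.4 and 46.1 CPM in fed 24 h libraries, 80.2, 76.2 and 75.8 CPM in fed 3 h libraries and 29.8, 38.6 and 36.3 CPM in unfed libraries. The groups did not overlap. Its log2 fold change against unfed cells was 0.34 at 24 h (SE 0.0780, edgeR adjusted p = 0.00423) and 1.15 at 3 h (SE 0.0774, edgeR adjusted p = 1.37e-08), and between fed 24 h and fed 3 h cells it was −0.81 (SE 0.0758). Ddit3, which encodes CHOP, a C/EBP protein linked to cell death under lasting stress, had 15.9, 13.3 and 14.4 CPM in fed 24 h libraries, 18.4, 19.4 and 16.4 CPM in fed 3 h libraries and 11.5, 12.3 and 12.1 CPM in unfed libraries. It rose by 0.28 at 24 h (SE 0.0785, edgeR adjusted p = 0.0138) and by 0.60 at 3 h (SE 0.0780, edgeR adjusted p = 1.32e-05). Gdf15, a secreted stress hormone, was low, with 5.36, 4.36 and 4.73 CPM in fed 24 h libraries, 3.21, 3.42 and 3.86 CPM in fed 3 h libraries and 2.22, 3.49 and 3.76 CPM in unfed libraries. It rose by 0.61 at 24 h against unfed cells (SE 0.161, edgeR adjusted p = 0.0101) and by 0.46 against fed 3 h cells (SE 0.159). Without fed 24 h replicate 1, the 24 h calls of Ddit3 (0.22, edgeR adjusted p = 0.0779) and Gdf15 (0.53, edgeR adjusted p = 0.0515) ended, so that 2 stress response genes rose in place of 4. Over all genes, 1488 rose in that fit in place of 2017. The difference of Gdf15 between the feeding times was lost when replicate 1 of fed 24 h cells, or replicate 1 or 2 of fed 3 h cells, was left out (values 0.38 to 0.44).

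Asns (chromosome 6, 7675169 to 7693254), the enzyme that makes asparagine, had 152, 159 and 150 CPM in fed 24 h libraries, 229, 222 and 224 CPM in fed 3 h libraries and 198, 210 and 219 CPM in unfed libraries. Each fed 24 h library was below every other library. It fell by 0.44 on the log2 scale in fed 24 h against unfed cells (SE 0.0447, edgeR adjusted p = 1.03e-05), and was 0.11 in fed 3 h cells (adjusted p = 0.0601 by edgeR), a value called without unfed replicate 3 (0.14) and by DESeq2 (0.11). Between fed 24 h and fed 3 h cells the log2 fold change was −0.55 (SE 0.0447, edgeR adjusted p = 4.39e-08). Sesn2, a leucine sensor that restrains mTORC1, went the other way between the times, with 53.0, 52.1 and 50.2 CPM in fed 24 h libraries, 40.1, 41.9 and 39.1 CPM in fed 3 h libraries and 46.7, 47.8 and 48.4 CPM in unfed libraries. It was lower by −0.24 at 3 h (edgeR adjusted p = 0.00046), while its value at 24 h was 0.12 (adjusted p = 0.0573 by edgeR, and 0.13 and called with a stricter filter). The groups did not overlap.

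The glutathione-degrading enzyme Chac1 and the pseudokinase Trib3, which are often used as read-outs of ATF4 and CHOP, were not called as higher in fed than in unfed cells. Chac1 had 17.1, 19.7 and 17.6 CPM in fed 24 h libraries, 18.0, 15.2 and 15.1 CPM in fed 3 h libraries and 18.6, 19.4 and 20.4 CPM in unfed libraries, a log2 fold change of −0.10 at 24 h (adjusted p = 0.344 by edgeR) and a fall of −0.27 at 3 h (SE 0.0759, edgeR adjusted p = 0.00694). Trib3 had 11.5, 12.3 and 11.9 CPM in fed 24 h libraries, 12.4, 13.6 and 10.6 CPM in fed 3 h libraries and 13.3, 13.3 and 13.4 CPM in unfed libraries, and was called in none of the 3 comparisons (−0.16 at 24 h and −0.13 at 3 h against unfed cells). Without fed 3 h replicate 2 it was called as lower at 3 h (−0.21, edgeR adjusted p = 0.0388). Fgf21, a secreted metabolic hormone, had 3, 5 and 1 counts in fed 24 h libraries, 0, 1 and 0 counts in fed 3 h libraries and 1, 0 and 1 counts in unfed libraries, too few reads at this depth to detect a change.

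**Figure D1:**
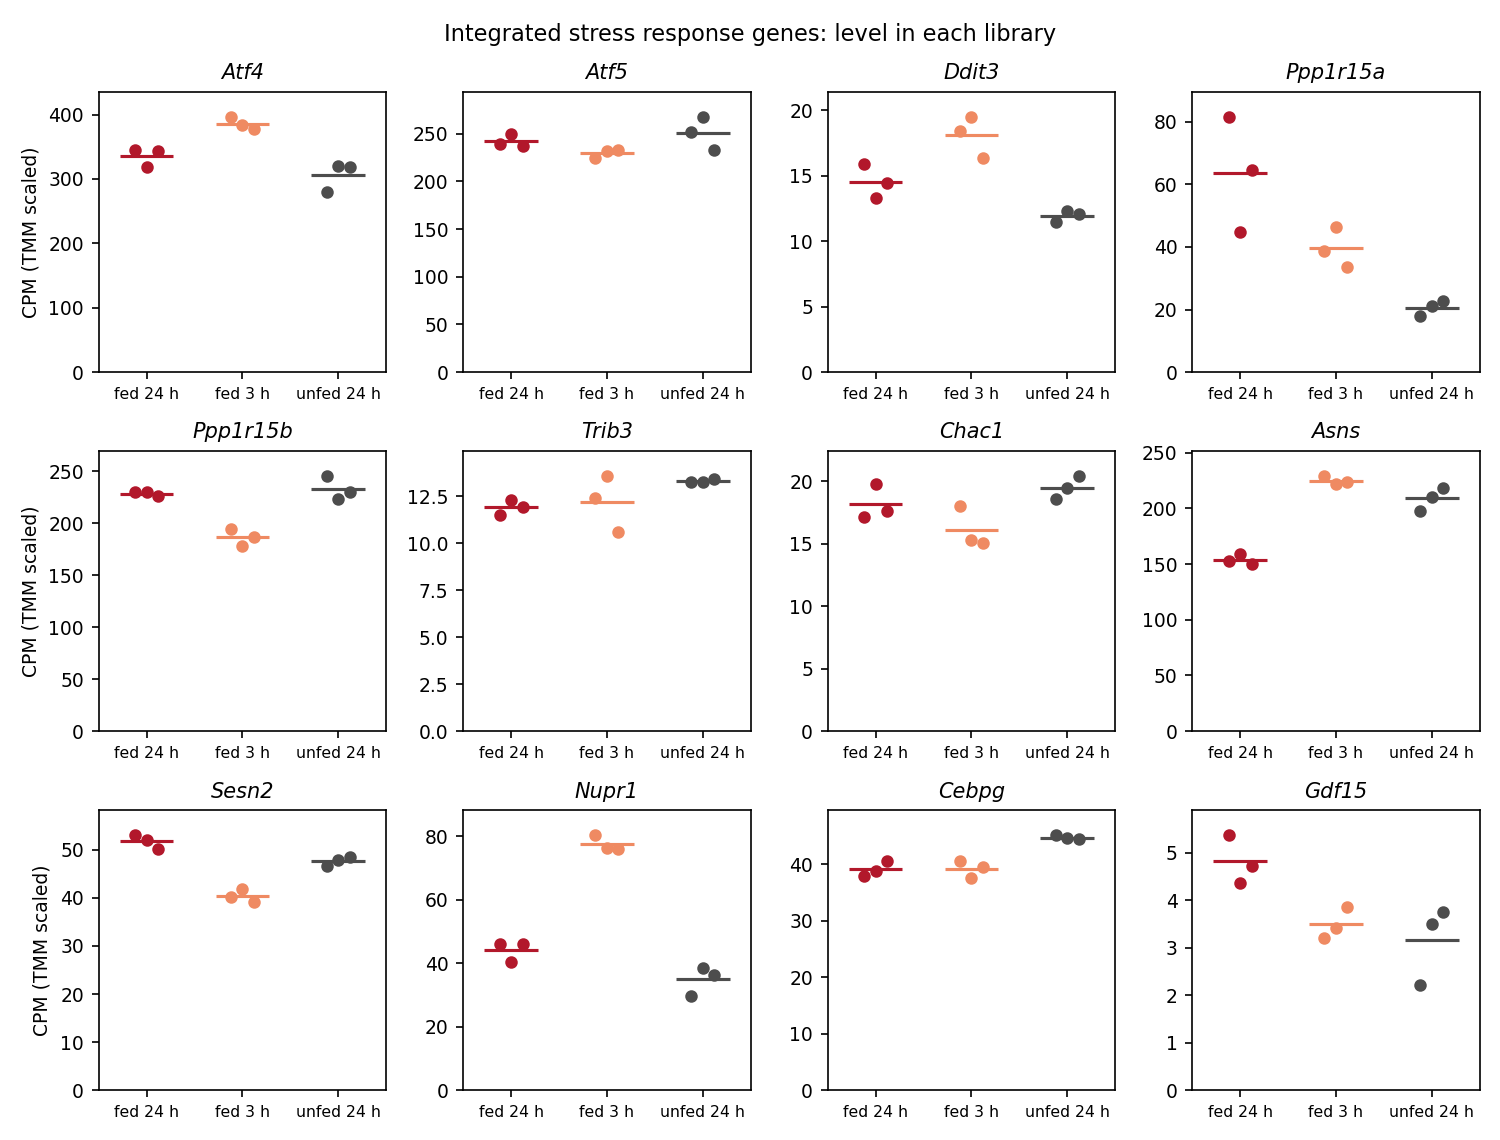
Level of the 12 tested integrated stress response genes in each library, in CPM scaled by TMM factors, by group; points are libraries, lines are the means of 3, and each axis starts at 0. Ppp1r15a averaged 63.5 CPM in fed 24 h, 39.5 CPM in fed 3 h and 20.6 CPM in unfed cells, Nupr1 was highest in fed 3 h cells and Asns lowest in fed 24 h cells.

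Most synthetases were higher in fed 3 h than in unfed cells, a comparison that shares its unfed libraries with the one above. In all, 14 of 19 rose and 0 fell, where 25.1% of all tested genes rose, 25.5% fell and 50.6% were called in either direction (edgeR, adjusted p under 0.05). All 3 fed 3 h libraries lay above all 3 unfed libraries in 15 synthetases, as they did in 29.1% of all tested genes. Their median log2 fold change was 0.16, against −0.01 over all tested genes. Of the 12 stress response genes tested, 4 rose at 3 h and 5 fell, with a median of −0.01. The largest rise of a synthetase was that of Nars, which charges asparagine (chromosome 18, 64499647 to 64516652). It had 353, 376 and 362 CPM in fed 24 h libraries, 560, 514 and 547 CPM in fed 3 h libraries and 385, 435 and 418 CPM in unfed libraries. No group overlapped another. The log2 fold change against unfed cells was −0.18 at 24 h (SE 0.0512, edgeR adjusted p = 0.0141) and 0.39 at 3 h (SE 0.0512, edgeR adjusted p = 1.34e-05).

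Iars, the isoleucine enzyme (chromosome 13, 49682100 to 49734267), had 182, 207 and 189 CPM in fed 24 h libraries, 288, 282 and 282 CPM in fed 3 h libraries and 216, 254 and 245 CPM in unfed libraries. Its fold changes against unfed cells were −0.31 at 24 h (SE 0.0591, edgeR adjusted p = 0.00133) and 0.25 at 3 h (SE 0.0589, edgeR adjusted p = 0.00208) on the log2 scale. The other large rises at 3 h were in Tars, the threonine enzyme (0.30), and Hars, the histidine enzyme (0.26). Among the falls at 24 h, those of Farsb, the beta subunit of the phenylalanine enzyme (−0.31, SE 0.0463), and Gars, the glycine enzyme that also serves mitochondria (−0.30, SE 0.0452), were nearest in size to that of Iars. The alpha subunit of the phenylalanine enzyme, Farsa, was −0.09 at 24 h (adjusted p = 0.207 by edgeR) and rose by 0.20 at 3 h, while Farsb was 0.04 at 3 h (adjusted p = 0.519 by edgeR). Whether these subunits differed from each other was not tested.

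The direct comparison of fed 24 h with fed 3 h cells compared sorted cells only, and its contrast does not include the unfed libraries, although they entered the estimate of the spread. Time since feeding and time in culture differed together in this comparison and cannot be told apart. In it 18 of 19 synthetases fell and 0 rose, where 30.2% of all tested genes fell, 30.8% rose and 60.9% were called in either direction (edgeR, adjusted p under 0.05). Their median log2 fold change was −0.33, against 0.00 over all tested genes. In all 18 the fed 24 h libraries lay below all fed 3 h libraries, as they did in 32.6% of all tested genes. The largest falls were in Nars (−0.57, SE 0.0512), Iars (−0.56, SE 0.0591), Tars (−0.48, SE 0.0519), Rars, the arginine enzyme (−0.47, SE 0.0466), and Gars (−0.46, SE 0.0452). The smallest called fall was that of Eprs, the joined glutamate and proline enzyme (−0.14, SE 0.0538, edgeR adjusted p = 0.0297), whose call ended when replicate 1 or 3 of fed 24 h cells, or replicate 1 or 2 of fed 3 h cells, was left out (values −0.15 to −0.11). Qars, the glutamine enzyme (chromosome 9, 108507706 to 108515941), was the exception. It had 113, 118 and 114 CPM in fed 24 h libraries, 111, 108 and 113 CPM in fed 3 h libraries and 115, 113 and 113 CPM in unfed libraries. Its groups overlapped and no comparison called it (0.05 between fed 24 h and fed 3 h, with adjusted p = 0.266 by edgeR). Scaled by library totals alone it was called as higher (0.10). Of the 12 stress response genes, 4 rose and 4 fell. The fed 24 h libraries lay above all fed 3 h libraries in 4 of them, as they did in 33.3% of all tested genes.

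**Figure D2:**
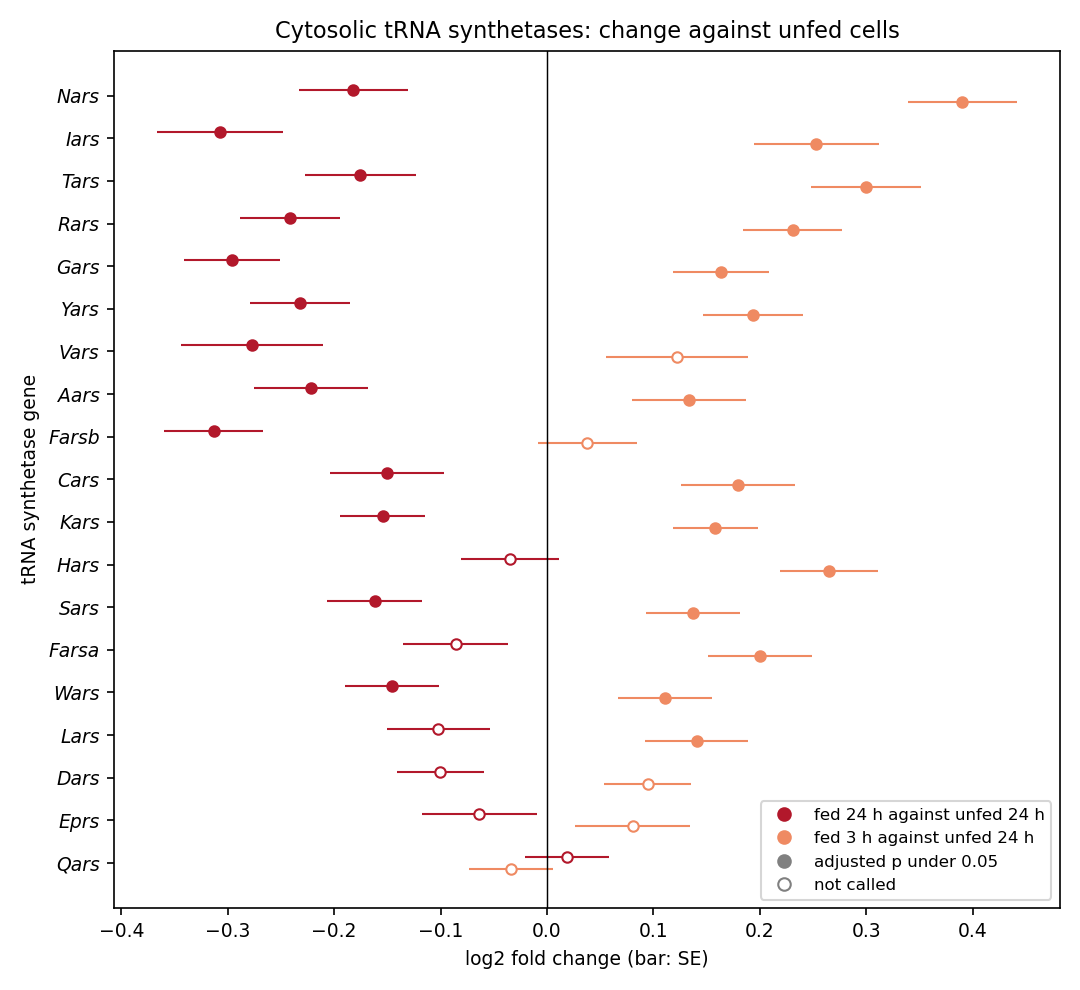
Log2 fold change against unfed cells of the 19 synthetases in fed 24 h (red) and fed 3 h cells (orange), with the SE as bars; filled points have an adjusted p under 0.05 by edgeR. The comparisons share the unfed libraries. At 24 h 13 were called lower and at 3 h 14 were called higher, and Qars lies near 0 in both.

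Single libraries also differed within groups. As a ratio to each gene's unfed mean, the median synthetase stood at 0.879, 0.915 and 0.878 among fed 24 h libraries. It stood at 1.12, 1.09 and 1.14 among fed 3 h libraries and at 0.940, 1.04 and 1.02 among unfed libraries. Unfed replicate 1 stood below its group, with the lowest value of the 3 in 17 of 19 synthetases, and fed 24 h replicate 2 had the highest value of its group in 18 of 19. Summed over the 19 genes, synthetases held 0.363 ± 0.0102% of all counts in fed 24 h, 0.452 ± 0.00365% in fed 3 h and 0.410 ± 0.0192% in unfed libraries (SD, n = 3 each).

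**Figure D3:**
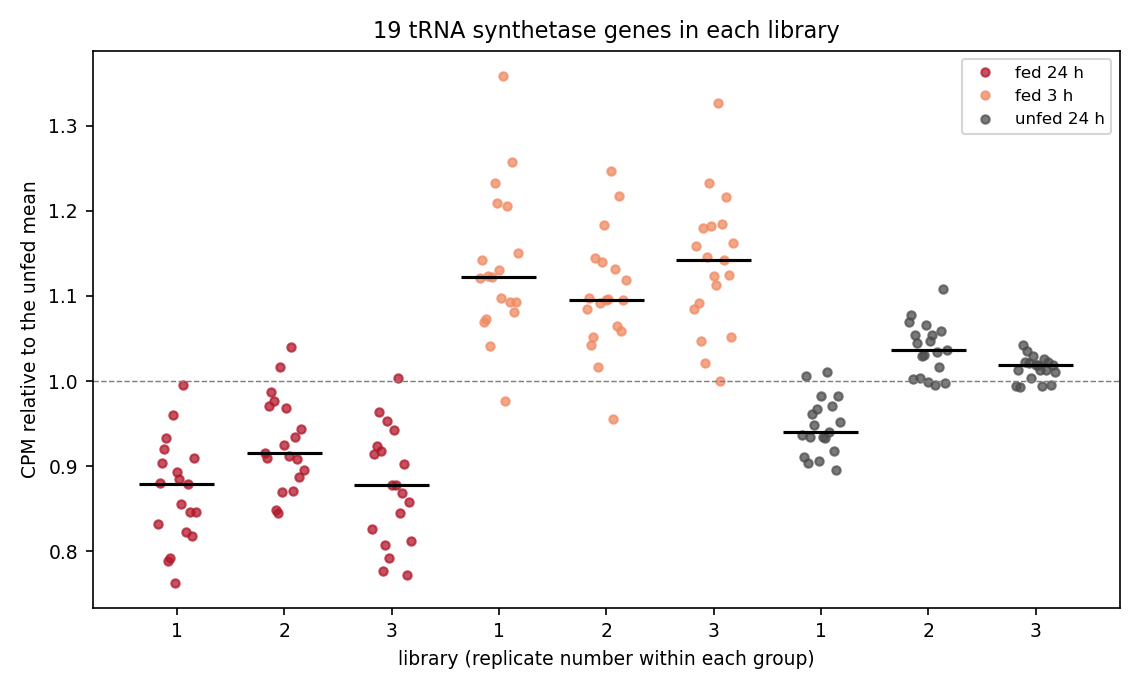
CPM of each of the 19 synthetases in each library, divided by the gene's mean in unfed cells; points are genes and black lines the median gene, with the 3 libraries of fed 24 h, fed 3 h and unfed cells from left to right. Medians are 0.878 to 0.915 in fed 24 h, 1.09 to 1.14 in fed 3 h and 0.940 to 1.04 in unfed libraries.

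Calls of single synthetases against unfed cells often depended on 1 library. At 24 h, 8 synthetases fell in place of 13 without fed 24 h replicate 1 or without unfed replicate 3. Over all genes, 1426 and 1527 fell in these fits in place of 2159. In each case Cars, Nars, Sars, Tars and Wars were lost, with values of −0.15 to −0.13 and −0.17 to −0.13. With all 9 libraries these 5 had −0.18 to −0.15. Some of these 5 were also lost without unfed replicate 2 (Cars, Nars, Tars and Wars, −0.15 to −0.09) and without fed 24 h replicate 3 (Cars, Sars and Wars, −0.16 to −0.11). Cars, the cysteine enzyme, was lost as well without fed 24 h replicate 2 or any fed 3 h library. Without unfed replicate 1, 16 synthetases fell at 24 h, with Eprs (−0.13), Farsa (−0.13) and Lars (−0.15) added. Without fed 24 h replicate 2, Dars was added (−0.13). At 3 h, 10 synthetases rose in place of 14 without unfed replicate 1, which ended the calls of Aars (0.09), Lars (0.09), Sars (0.11) and Wars (0.10). Over all genes, 3007 rose in that fit in place of 3408. The rise of Aars, the alanine enzyme, was close to the threshold (0.13, edgeR adjusted p = 0.0495) and ended without 7 of the 9 libraries in turn, and that of Wars, the tryptophan enzyme (0.11, edgeR adjusted p = 0.0461), ended without 6 of the 9. Lars and Sars were also lost without fed 3 h replicate 3. Vars, the valine enzyme, was called at 3 h without unfed replicate 2 (0.20), and Dars without fed 24 h replicate 2 (0.09).

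Synthetases of the multisynthetase complex, a large assembly of enzymes held by scaffold proteins, were not all called. Of its 7 synthetases on the fixed list of genes (Dars, Eprs, Iars, Kars, Lars, Qars and Rars), 3 fell at 24 h, 4 rose at 3 h and 6 were lower at 24 h than at 3 h, with values of −0.56 to 0.05 in the last comparison. For scale, over all tested genes 15.9% fell at 24 h, 25.1% rose at 3 h and 30.2% fell between the times. Of the scaffolds, Aimp2 fell by 0.45 at 24 h (SE 0.0531, edgeR adjusted p = 3.58e-05) and Eef1e1 by 0.48 (SE 0.0674, edgeR adjusted p = 0.000140). The scaffold Aimp1 was −0.10 at 24 h and was not called. Mars, the methionine enzyme of the complex, is outside the fixed list and these counts. It averaged 186 CPM in fed 24 h, 209 CPM in fed 3 h and 222 CPM in unfed cells, and fell at 24 h by 0.25 against unfed cells. It was −0.08 at 3 h and not called, and fell by 0.17 between fed 24 h and fed 3 h cells. Both structural classes of synthetase took part. Of the 8 class I enzymes, 6 fell at 24 h, 6 rose at 3 h and 7 fell between the times, and of the 10 class II enzymes, 7 fell, 8 rose and 10 fell, beside the same shares of all tested genes.

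Split by the element described above, the synthetases gave different ranges. The 5 with the element in the window had log2 fold changes between fed 24 h and fed 3 h cells of −0.56 to −0.35 (median −0.46), and the 7 without it had −0.35 to 0.05 (median −0.29). The ranges nearly met, with Aars (−0.354) and Farsb (−0.351) at their ends. All 5 with the element were called in each of the 3 comparisons, although the 3 h call of Aars and the 24 h call of Tars were lost under some alternatives. Of the 7 without it, 3 fell at 24 h and 3 rose at 3 h against unfed cells, and 6 fell between fed 24 h and fed 3 h cells, where over all tested genes 15.9% fell at 24 h, 25.1% rose at 3 h and 30.2% fell between the times. This is a description of 12 genes without a test. The 7 synthetases with no matched window, Nars among them, had −0.57 to −0.24 between fed 24 h and fed 3 h cells (median −0.33). Stress response genes with the element did not share a direction: between fed 24 h and fed 3 h cells Asns (−0.55) and Nupr1 (−0.81) fell, while Chac1 (0.18) and Trib3 (−0.03) were not called. Chac1 was called as higher with other filters on low counts (0.18), with library totals alone (0.23), and without fed 24 h replicate 1 (0.22), fed 3 h replicate 1 (0.26) or unfed replicate 1 (0.18).

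**Figure D4:**
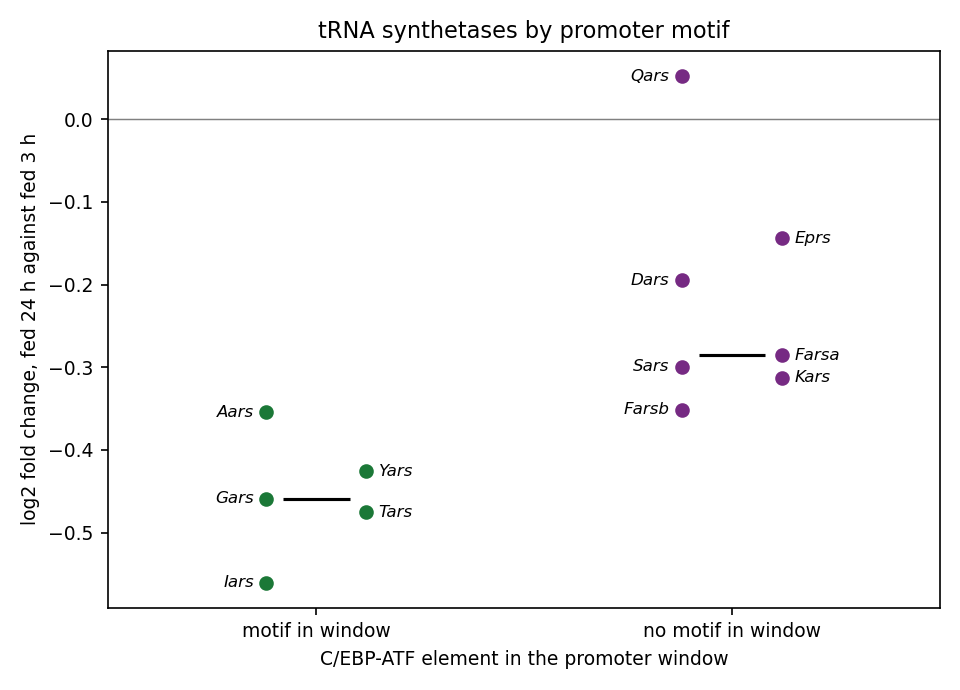
Log2 fold change of fed 24 h against fed 3 h cells for the 12 synthetases with a promoter window, by whether the window holds the C/EBP-ATF element; points are genes and black bars medians. The 5 genes with the element lie between −0.56 and −0.35 and the 7 without it between −0.35 and 0.05.

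Most synthetases of mitochondria are encoded by separate nuclear genes, while Gars and Kars, counted here as cytosolic, also serve mitochondria. Of 17 tested, 2 rose and 3 fell at 24 h, 3 rose and 6 fell at 3 h, and 5 were higher and 4 lower at 24 h than at 3 h (median 0.05, against −0.33 in the cytosolic genes). Over all tested genes, 14.9% rose and 15.9% fell at 24 h, 25.1% rose and 25.5% fell at 3 h, and 30.8% were higher and 30.2% lower at 24 h than at 3 h, so most of these counts lie near or below the shares of all genes. The difference between the lists was not tested. Those that fell most between the times were Mars2 (−0.84, SE 0.0869) and Yars2 (−0.63, SE 0.0741). Lars2 varied between libraries, with 331, 322 and 362 CPM in fed 24 h libraries, 242, 150 and 291 CPM in fed 3 h libraries and 170, 198 and 196 CPM in unfed libraries. It was higher at 24 h by 0.85 than in unfed cells (SE 0.153, edgeR adjusted p = 0.000860). The summed share of Gm42418 and Gm26917, a pair of loci that overlap ribosomal RNA sequence, moved with it, at 0.201% to 0.350% in fed 24 h, 0.0927% to 0.249% in fed 3 h and 0.0904% to 0.115% in unfed libraries, and its part in the Lars2 result was not tested.

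Upstream of ATF4, the kinase genes changed little against unfed cells at 24 h. Eif2ak2, which encodes the RNA sensor PKR, rose by 0.19 (SE 0.0428, edgeR adjusted p = 0.00333), and it was the 1 of 4 kinases called. At 3 h, Eif2ak3, which encodes the endoplasmic reticulum sensor PERK, fell by 0.40 (SE 0.0594, edgeR adjusted p = 4.10e-05), and 0 of 4 rose. Between fed 24 h and fed 3 h cells, 3 of the 4 kinases were higher and 0 lower, with Eif2ak3 at 0.53 (SE 0.0588). The subunits of eIF2 and of its exchange factor eIF2B were also counted, with 6 of 9 higher and 1 lower at 3 h (median 0.18), 1 higher and 4 lower at 24 h (median −0.14) and 6 lower and 0 higher between fed 24 h and fed 3 h cells (median −0.28). Beside these kinase and subunit counts, 25.1% of all tested genes rose and 25.5% fell at 3 h, and 14.9% rose and 15.9% fell at 24 h. Between fed 24 h and fed 3 h cells, 30.8% of all tested genes were higher and 30.2% lower. Eif2s1, the subunit phosphorylated in the stress response, averaged 123 CPM in fed 24 h, 169 CPM in fed 3 h and 145 CPM in unfed cells. Of the genes that relay mitochondrial stress to eIF2, Oma1 averaged 8.66 CPM in fed 24 h, 4.94 CPM in fed 3 h and 8.34 CPM in unfed cells and fell by 0.75 at 3 h (SE 0.0916, edgeR adjusted p = 6.30e-06). It was higher by 0.81 in fed 24 h than in fed 3 h cells (SE 0.0906). The other listed gene, Dele1, rose by 0.17 at 24 h against unfed cells (SE 0.0490, edgeR adjusted p = 0.0183). That call was lost without fed 24 h replicate 1 or unfed replicate 3. Dele1 was not called at 3 h, and was higher by 0.24 in fed 24 h than in fed 3 h cells (SE 0.0491).

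Other known ATF4 targets, 25 of 28 tested, were called in both directions. At 3 h 12 rose and 4 fell (median 0.12), at 24 h 2 rose and 12 fell (median −0.17), and between fed 24 h and fed 3 h cells 5 were higher and 14 lower (median −0.40). For scale, of all tested genes 25.1% rose and 25.5% fell at 3 h, and 14.9% rose and 15.9% fell at 24 h. Between fed 24 h and fed 3 h cells, 30.8% were higher and 30.2% lower. The falls of this list at 3 h, and its rises at 24 h and between the times, lay below these shares. Log2 fold changes over the list ran from −0.81 to 1.48 at 3 h, −0.74 to 1.73 at 24 h and −2.04 to 0.70 between the times. The ends at 1.48, −0.74, 1.73 and −2.04 belonged to genes under 5 CPM or not called. Among the rises at 24 h, Jdp2 had at least 5 CPM (0.15, SE 0.0445, edgeR adjusted p = 0.0173). Its call was lost without fed 24 h replicate 3 or unfed replicate 3. The targets with at least 5 CPM and the largest changes included amino acid transporters and serine enzymes. Slc7a5, the light chain of a transporter of large neutral amino acids, averaged 211 CPM in fed 24 h, 475 CPM in fed 3 h and 330 CPM in unfed cells, a log2 fold change of −0.65 at 24 h and 0.53 at 3 h (SE 0.0645 and 0.0641) against unfed cells. Slc7a1, a carrier of cationic amino acids, fell by 0.48 at 24 h, and Psat1, of serine synthesis, by 0.54. At 3 h, Slc3a2, the heavy chain partner of Slc7a5, rose by 0.63 and Eif4ebp1, a translation repressor, by 0.59. Shmt2, the mitochondrial serine hydroxymethyltransferase, was lower by −0.86 at 24 h than at 3 h. The genes that fell at 3 h were Ddit4, an inhibitor of mTORC1 (−0.81), Pck2, a mitochondrial carboxykinase (−0.41), Slc38a2, a carrier of neutral amino acids (−0.35), and Herpud1, of protein degradation at the endoplasmic reticulum (−0.27). The last is outside the rule for named genes and was chosen after its value was seen.

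Genes of the unfolded protein response that depend on ATF6 and IRE1 mostly fell at 3 h. Of 16, 2 rose and 12 fell at 3 h (median −0.26), 2 rose and 3 fell at 24 h (median 0.03), and 14 were higher and 2 lower in fed 24 h than in fed 3 h cells (median 0.31). Over all tested genes, 25.1% rose and 25.5% fell at 3 h, and 14.9% rose and 15.9% fell at 24 h. In fed 24 h against fed 3 h cells, 30.8% were higher and 30.2% lower. The 24 h counts of this list thus lie near the shares of all genes. Hspa5, which encodes the chaperone BiP, averaged 998 CPM in fed 24 h, 617 CPM in fed 3 h and 980 CPM in unfed cells, a fall of 0.67 on the log2 scale at 3 h (SE 0.0409, edgeR adjusted p = 4.55e-09). Sdf2l1, a cofactor of BiP, fell by 1.04 at 3 h, and Xbp1, the factor spliced by IRE1, by 0.79. The sensor genes Atf6 and Ern1, which encodes IRE1, were those that rose at 3 h (0.40 and 0.47).

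**Figure D5:**
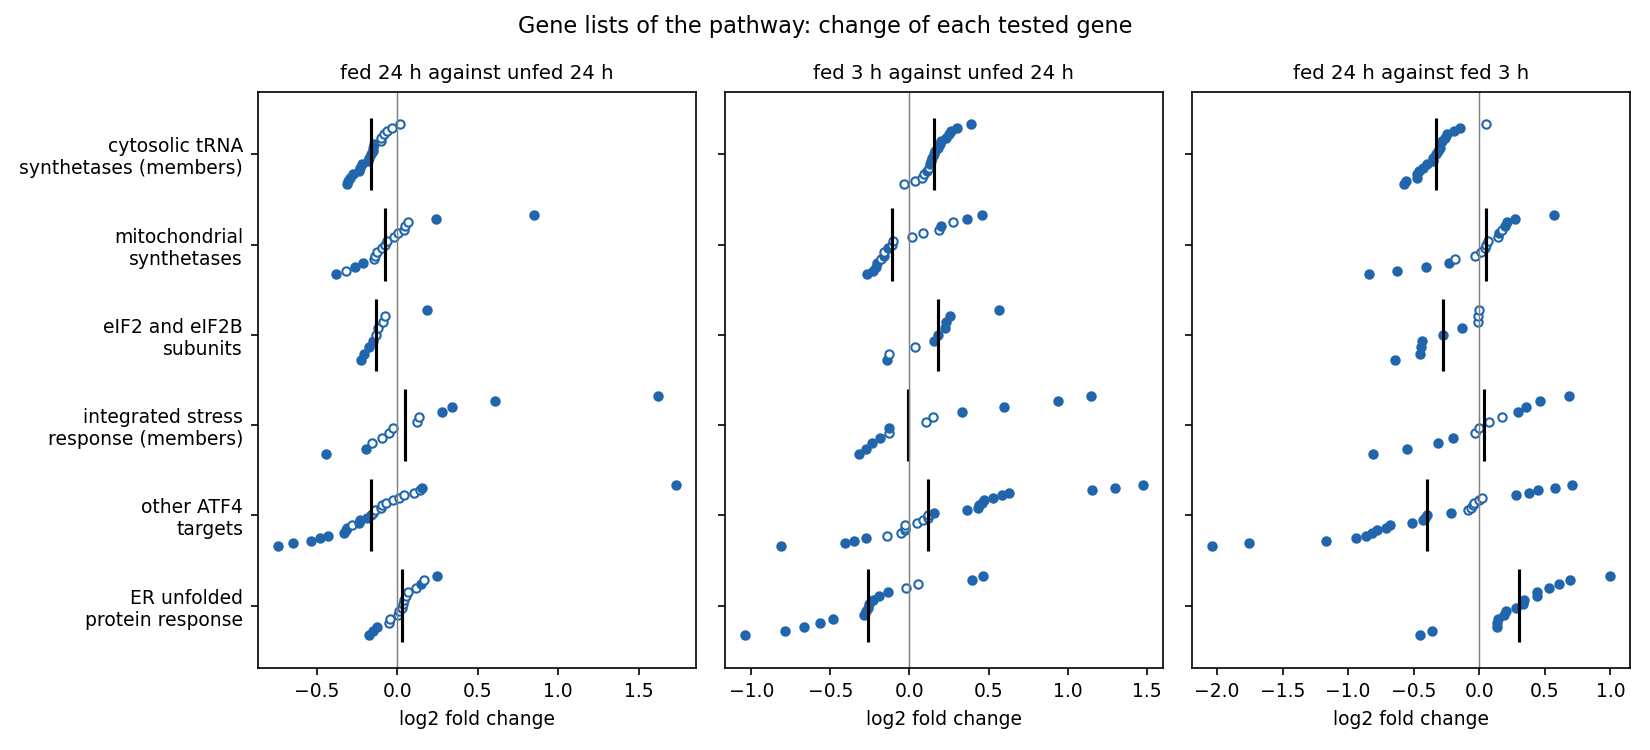
Log2 fold change of each tested gene of 6 lists in the comparisons of fed 24 h with unfed, fed 3 h with unfed and fed 24 h with fed 3 h cells; filled points have an adjusted p under 0.05 by edgeR, black bars are medians, and the horizontal axes differ in range. The comparisons share libraries. In the last, cytosolic synthetases have a median of −0.33 and the unfolded protein response genes 0.31.

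Several members overlap other genes, and without a stated strand setting the reads of overlapping genes cannot be told apart. As a share of the member's exonic length, the largest overlaps were those of Aars with Exosc6 (14.3% of the exonic length of Aars), Ppp1r15b with Gm26616 (11.4%), Farsb with Sgpp2 (9.47%), Hars with Hars2 (7.97%), Atf5 with Nup62 and Il4i1 (4.11% each) and Ddit3 with Mars (3.97%).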

How the data were processed

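RNA was sequenced from 9 ST2 libraries in 3 groups of 3. The deposited table holds raw read counts per mouse gene symbol, 1 column per library. The submitters' processing notes name STAR 2.7.0f, featureCounts of Subread 1.6.4, and MultiQC 1.7, and the builds GRCm38.p6 and GRCh38.p13. Annotation release, strand setting and use of the human build: not given in the sources used here. A sample protocol names a stranded mRNA kit and 50 ng of RNA, whereas the series text gives 1 ng amplified with SMART-Seq v4, so it is unsettled whether reads kept their strand. In 26 lines a symbol had become a date, and these lines (0.26% of counts) stayed in the totals.

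After filterByExpr and TMM scaling, edgeR 4.0.16 (R 4.3.3) fitted all 9 libraries by group, and its quasi-likelihood F-test compared the groups. Benjamini-Hochberg adjustment ran over 13568 genes, and an adjusted p under 0.05 was called. The SE is the log2 fold change divided by the square root of F. The common biological coefficient of variation was 0.0536. The spread between replicates was 5.46 to 16.1 times that of counting alone, so no library appeared to be deposited more than once. The procedure was run on simulated counts that gave all genes a common spread and changed few genes, in the fed 24 h group only. Far more genes were called in the data, so that run does not measure the error under these conditions. The members and lists were chosen with earlier results of these data known, and no list was tested as a whole.

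Values in every library are given for stress response genes and for members with an absolute log2 fold change of at least 0.5. From each other list, up to 3 called genes per direction with at least 5 CPM could be named, and not each is described. Exonic lengths and coordinates are from GENCODE M21 (GRCm38), and promoter windows from RefSeq. Alternatives were the size factors and the Wald test of DESeq2 1.42.0, no filter, a stricter filter (1 CPM in 3 libraries), the replicate number as a factor, fits of 6 libraries and leaving out each library. After the data were seen, scaling by library totals alone and a fit without mitochondrial and ribosomal RNA linked genes were added. The sequence of 1 promoter element is not reported here.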

Additional observations from a re-analysis of the deposited data

Results flagged for a closer look

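In 11 synthetases the fed 24 h level was called below and the fed 3 h level above the unfed level. Of all tested genes, 15.9% were called lower at 24 h and 25.1% higher at 3 h. The share of all genes with both calls was not counted in any fit, so whether 11 is unusual was not tested. Choosing genes by both calls all but fixes a negative difference between the feeding times, so the differences below are a description and no further support. The count fell to 5 (Gars, Iars, Kars, Rars and Yars) without fed 24 h replicate 1 or unfed replicate 3, and to 7 without fed 24 h replicate 3. The log2 fold change of fed 24 h against fed 3 h cells was −0.35 in Aars, −0.33 in Cars, −0.46 in Gars, −0.56 in Iars, −0.31 in Kars and −0.57 in Nars. It was −0.47 in Rars, −0.30 in Sars, −0.48 in Tars, −0.26 in Wars and −0.43 in Yars. Each comparison with unfed cells used the same unfed libraries, and no unfed library of 3 h was analysed here. In a group of 3 libraries, no single library could be tested as an outlier.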

How the results depend on the processing

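Of 68 member results that were called, 54 kept their call and direction under each of 17 alternatives, 14 lost the call under at least 1, and 0 changed sign. Of 76 results of other named pathway genes, 66 kept theirs. With the replicate number as a factor (replicate block), 13 of the 19 synthetases were higher at 3 h in place of 14 and 12 lower at 24 h in place of 13, and the block moved no count by over 1.5 times. Same-numbered libraries deviated from their group means with correlations of −0.163 to 0.0578, and other pairs between groups with −0.0971 to 0.104. No sign of pairing by number was seen, but 3 libraries per group cannot settle whether samples were prepared in matched sets. Leaving out each library gave 8 to 16 synthetases lower at 24 h, 2 to 5 stress response genes higher at 24 h, and 1426 to 2241 genes lower at 24 h over all genes. Scaled by library totals alone, 1 synthetase (Qars) was higher in fed 24 h than in fed 3 h cells in place of 0, and 17 were lower in place of 18, with Eprs lost. At 3 h it gave 10 synthetases higher in place of 14, with Aars, Lars, Sars and Wars lost, and 2834 genes higher and 4064 lower over all genes in place of 3408 and 3460. Results near 0 that changed sign were called in no alternative. Leaving out each library gave −0.0553 to 0.0139 for Ppp1r15b and −0.0015 to 0.0368 for Qars at 24 h against unfed cells, −0.0530 to 0.288 for Gdf15 at 3 h against unfed cells, and −0.123 to 0.0522 for Trib3 and −0.0388 to 0.0240 for Cebpg in fed 24 h against fed 3 h cells. Library totals alone gave −0.0067 for Farsb at 3 h, and 0.0219 for Trib3 and 0.0475 for Cebpg between the feeding times, where a stricter filter gave 0.0029 for Cebpg. The cause was not tested. Counts were lowest for Fgf21 and Gdf15.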
